A study of Mus musculus with 12 samples.

Results

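Transcripts of 9 B and T lymphocyte genes were examined in interscapular brown adipose tissue (BAT) of mice with and without thioredoxin-interacting protein (Txnip). The genes were *Jchain*, *Mzb1*, *Cd79a*, *Cd79b*, *Ms4a1*, *Cd3e*, *Cd3g*, *Cd4* and *Cd8a*, taken by symbol from a table of 25124 genes, and each of the 9 had a row. They were put together because *Jchain* had 1 of the largest rises without Txnip at 30 °C. The difference of these 9 genes between genotypes at 30 °C is therefore given below as a description with no test, and so are their differences between temperatures, which share those libraries. Other genes were tested in each contrast. The rule names no value at 23 °C, and the genotype difference there was tested. The genes were proposed with earlier results of both temperatures known, so these p-values are not those of a choice made blind.

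The data were 12 RNA-seq libraries of BAT from male mice aged 10 weeks, with 3 libraries per group. The groups were wild-type (WT) mice and Txnip-deficient mice (TxnipKO in the labels, *Txnip*-/- here), each acclimated for 1 week to 23 °C (room temperature, RT) or to 30 °C (thermoneutrality, TN). The deficient mice lack Txnip in the whole body, lymphocytes included, and were kept on a C57B/6J background, so a difference in BAT cannot be assigned to brown adipocytes or to lymphocytes. Each library was taken as 1 mouse, although the labels do not say so, and p-values measure the spread between these libraries.

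Levels are in TPM, a unit in which the reads on a transcript are divided by its length and scaled to the same total in every library. *Txnip* itself averaged 613 ± 70.8 TPM at RT in WT and 29.0 ± 5.59 in *Txnip*-/-, and 1131 ± 92.7 at TN in WT and 11.98 ± 2.12 in *Txnip*-/- (mean ± SD, n = 3 here and throughout), as the labels have it. A list of 8 brown adipocyte genes, among them *Ucp1*, summed to between 17241 and 29448 TPM in every library. In units of 1e6, each library held between 29.9 and 47.4 reads, of which between 19.2 and 29.2 were recovered on the listed genes. By contrast, the 9 lymphocyte genes held between 0 and 534 reads per library, and the counting error is part of every value given here.

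B lymphocytes recognise antigen through a surface immunoglobulin, and the proteins CD79A and CD79B carry its signal into the cell. Some of their descendants become plasma cells, which secrete antibody, and the J chain joins immunoglobulin M or immunoglobulin A molecules into larger complexes that epithelia can carry into secretions. T lymphocytes recognise antigen through the T cell receptor, which signals through the CD3 chains, with CD4 on helper cells and CD8 on cytotoxic cells. Fat depots hold resident lymphocytes among macrophages and other leukocytes. In whole tissue, more cells of a type and more RNA per cell cannot be told apart.

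*Cd3e* and *Cd3g* lie close together on chromosome 9, *Cd4* and *Cd8a* lie far apart on chromosome 6, and each of the other genes lies on a chromosome of its own. The transcripts counted were chr5:88519809-88527897 on the minus strand for *Jchain*, chr7:24897497-24901858 on the plus strand for *Cd79a* and chr9:44969572-44980431 on the minus strand for *Cd3g* (mm10). RefSeq promoter sequence (GRCm38.p6) was at hand for 5 of the 9 genes. The 250 bases before the start are shown for *Jchain*, whose level differed most, and for 1 B cell gene and 1 T cell gene with which it is compared. Capitals mark the E-box letters CAGGTG and, on either strand, the letters AGGAAG of ETS factors.
Jchain, chr5:88527898-88528147, minus strand: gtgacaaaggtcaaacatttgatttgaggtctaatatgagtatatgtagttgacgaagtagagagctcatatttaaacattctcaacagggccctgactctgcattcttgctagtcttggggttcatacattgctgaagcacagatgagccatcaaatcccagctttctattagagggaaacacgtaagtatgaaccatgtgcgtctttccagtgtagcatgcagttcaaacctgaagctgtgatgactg
Cd79a, chr7:24897247-24897496, plus strand: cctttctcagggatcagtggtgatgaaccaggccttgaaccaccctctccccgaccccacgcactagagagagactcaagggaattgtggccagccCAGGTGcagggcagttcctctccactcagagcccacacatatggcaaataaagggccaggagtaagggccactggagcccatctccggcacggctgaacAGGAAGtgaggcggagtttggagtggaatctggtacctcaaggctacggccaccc
Cd3g, chr9:44980432-44980681, minus strand: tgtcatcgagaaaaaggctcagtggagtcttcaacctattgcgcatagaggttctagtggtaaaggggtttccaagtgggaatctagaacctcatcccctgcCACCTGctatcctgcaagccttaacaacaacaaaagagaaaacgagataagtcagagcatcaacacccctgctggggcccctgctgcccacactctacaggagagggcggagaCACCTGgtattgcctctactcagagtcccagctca

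These letters and others associated with factors that act in lymphocytes were searched on both strands of the 250 bases. The others were the octamer ATGCAAAT, the letters CCCNNGGG of EBF factors, the letters TGTGGT of RUNX factors and the letters TGACGT of the cyclic AMP response element (CRE). The window of *Jchain* held none of them. The window of *Cd79a* held CAGGTG at 154 and AGGAAG at 55 bases before the start, and that of *Cd3g* held CAGGTG on the opposite strand at 148 and at 35 bases. Of 32851 mouse promoter windows of the same length, 17.2% held CAGGTG and 29.5% held AGGAAG, so such matches are common, and the other letters were found in 1.60% (octamer), 11.8% (EBF), 14.0% (RUNX) and 6.47% (CRE). A match is a description of the letters and not a site of binding.

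*Jchain* had the highest level of the 9 genes in TN *Txnip*-/- BAT, and it was the member called higher without Txnip at RT, a call that the loss of 1 library could undo. In RT WT, the libraries held 0.404, 0.456 and 0.274 TPM, and in RT *Txnip*-/- they held 1.778, 1.761 and 1.451 TPM. Every *Txnip*-/- library was above every WT library, and the ratio of the means was 4.40 (1.66 ± 0.184 against 0.378 ± 0.0937 TPM). The reads behind these values summed to 50 in RT WT (95% Poisson interval 37.1 to 65.9) and to 212 in RT *Txnip*-/- (184 to 243). Limma voom on the reads recovered from the TPM, a setting added after the data were seen, gave a log2 fold change of 2.08 (SE 0.26, adjusted p = 0.0155), where 0.724% of 16028 genes were called higher. With each library left out in turn, that fit called *Jchain* in 5 of 6 cases and not without RT WT replicate 2 (log2 fold changes of 1.89 to 2.23, limma adjusted p of 0.0227 to 0.0906).

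On the log2(TPM + 1) scale, which understates the change of low genes, the difference was 0.95. With no filter on low values its SE was 0.09 and the limma adjusted p 0.0325, where 0.091% of 21970 genes were called higher. When 1 library was left out of that fit, the log2 difference lay between 0.90 and 1.01 but the call was lost in all 6 cases (limma adjusted p of 0.0623 to 0.127). Among genes with a mean of at least 1 TPM, the comparison gave an SE of 0.11 and a limma adjusted p of 0.0203, with 0.76% of 11980 genes called higher and *Jchain* at rank 54 by fold change. *Jchain* passed that filter with a mean of 1.02 TPM, through the *Txnip*-/- group alone, and fell under it without any RT *Txnip*-/- library. The call there was lost without RT WT replicate 1 (limma adjusted p = 0.0666) and without RT WT replicate 2 (0.105) and held without RT WT replicate 3 (0.0335). Over 8 fits on all libraries with another scaling, pseudocount, filter or set of values, the limma adjusted p lay between 0.0107 and 0.0341. All but the fit with no filter and the voom fit kept the filter of 1 TPM, so they are not free of how *Jchain* entered it.

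At TN, *Jchain* was at 0.830, 1.328 and 2.541 TPM in WT and at 12.454, 11.682 and 14.315 TPM in *Txnip*-/-. The groups were far apart, and the ratio of the means was 8.18 (12.8 ± 1.35 against 1.57 ± 0.880 TPM). This ratio rests on 1449 reads in *Txnip*-/- and 184 in WT. It is the difference for which the genes were chosen, the 3rd highest log2 fold change of 12891 genes, and it was not tested here. TN WT and RT *Txnip*-/- were next to each other in the order of the groups, at 1.57 and 1.66 TPM, and overlapped, while RT WT was the lowest group.

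*Mzb1*, a chaperone of the endoplasmic reticulum that helps B and plasma cells secrete antibody, was close to the limit of detection at RT. The RT WT libraries held 0.099, 0.051 and 0 TPM, which are 2, 1 and 0 reads, and the RT *Txnip*-/- libraries held 0.161, 0.059 and 0.208 TPM, from 3, 1 and 4 reads. The reading of 0 in RT WT replicate 3 allows a level of up to 0.192 TPM by the one-sided limit of 3 reads in that library, and its two-sided 95% Poisson interval reaches 3.69 reads. The sums of 3 and 8 reads had Poisson intervals of 0.619 to 8.77 and 3.45 to 15.8 that overlapped, so that no difference was detectable at this depth.

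At TN, *Mzb1* was at 0.404, 0.654 and 0.465 TPM in WT and at 0.632, 1.247 and 1.748 TPM in *Txnip*-/-. The lowest *Txnip*-/- library was below the highest WT library, and the summed reads were 60 (45.8 to 77.2) against 27 (17.8 to 39.3). Exons of *Mzb1* overlap those of another annotated gene on the same strand, *SPATA24*, and the counts may include reads of both.

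**Figure D1:**
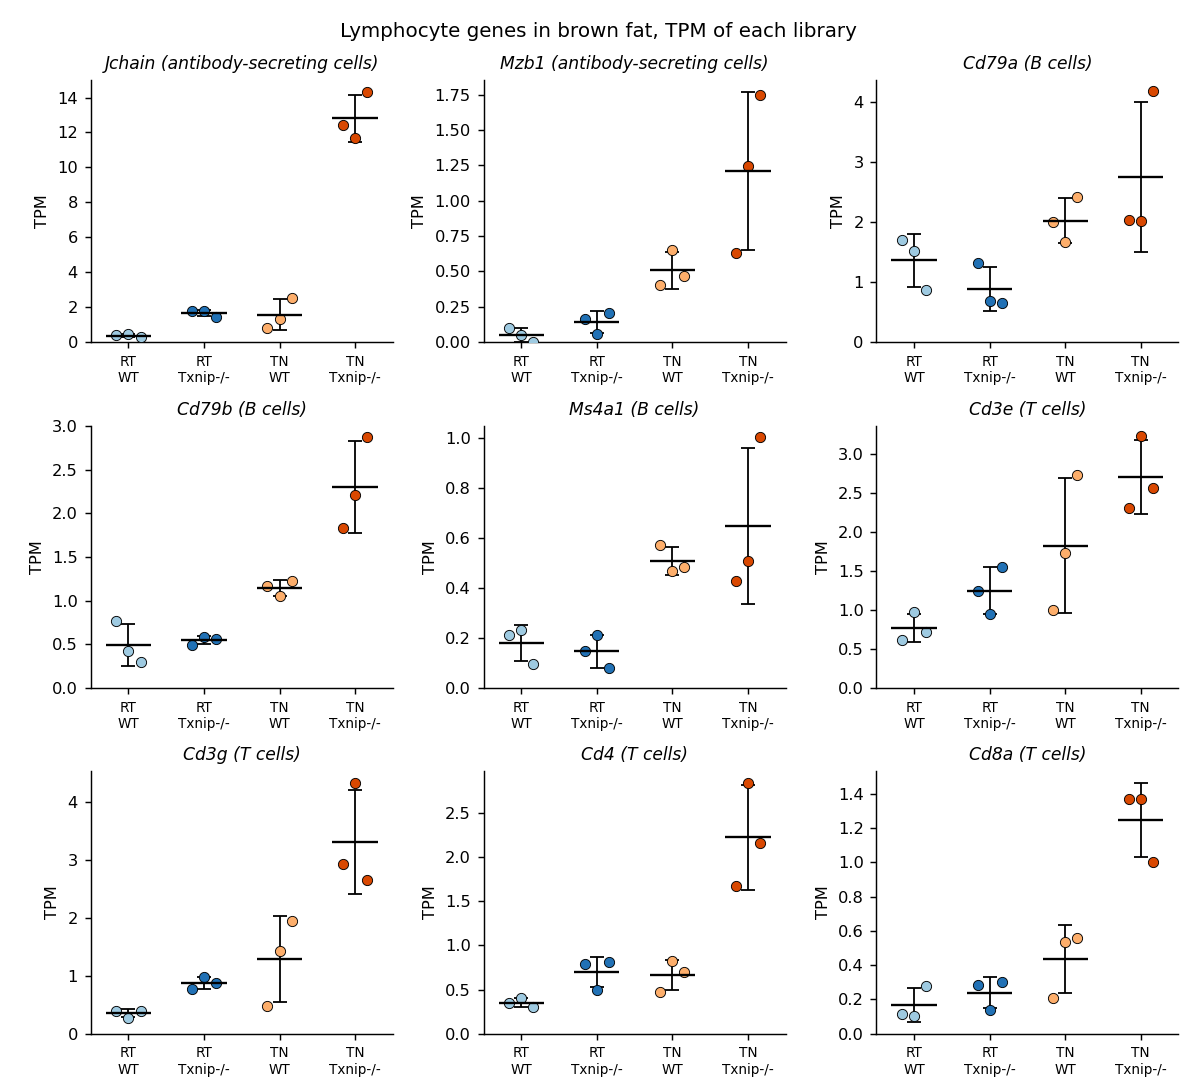
Level of each of the 9 genes in TPM (vertical axis, linear, starting at 0, a different range in each panel) in the 3 libraries of each group, with points for libraries, a line for the mean and bars for ± SD. In the *Jchain* panel the 3 TN *Txnip*-/- libraries sit between 11.682 and 14.315 TPM and all others at or below 2.541 TPM, while in the *Mzb1*, *Cd79a*, *Ms4a1* and *Cd3e* panels the genotypes overlap at both temperatures.

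The 3 B cell genes gave no call between genotypes at RT. *Cd79a* was at 1.704, 1.509 and 0.867 TPM in RT WT and at 1.313, 0.689 and 0.658 TPM in RT *Txnip*-/-. The genotypes overlapped, and the log2(TPM + 1) difference was −0.32 (SE 0.19, limma adjusted p = 0.468), below 0 where *Jchain* was above it. *Cd79a* passed the filter of 1 TPM through the WT group alone, and with the filter off the limma adjusted p was 0.581. *Cd79b*, its partner in the B cell receptor, was at 0.761, 0.427 and 0.294 TPM in WT and at 0.495, 0.584 and 0.558 TPM in *Txnip*-/-. *Ms4a1*, which encodes the B cell surface protein CD20, was at 0.210, 0.230 and 0.097 TPM in WT and at 0.147, 0.213 and 0.079 TPM in *Txnip*-/-. *Cd79b* and *Ms4a1* overlapped between genotypes and were below the filter of 1 TPM. With the filter off their log2 differences were 0.06 (SE 0.11, limma adjusted p = 0.885) and −0.04 (SE 0.06, limma adjusted p = 0.848).

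At TN, the ratios of *Txnip*-/- to WT were 1.27 to 2.01 for the 3 B cell genes, beside 8.18 for *Jchain*. *Cd79a* was at 1.991, 1.667 and 2.405 TPM in WT and at 2.033, 2.010 and 4.179 TPM in *Txnip*-/-, and the groups overlapped. The ratio of 1.36 (2.74 ± 1.246 against 2.02 ± 0.370 TPM) rests on *Txnip*-/- replicate 3, since the other 2 *Txnip*-/- libraries lie within the WT range. *Ms4a1* showed the same library apart, with 0.426, 0.509 and 1.003 TPM in *Txnip*-/- against 0.572, 0.469 and 0.483 TPM in WT. Without that library the log2 difference of *Ms4a1* turned from 0.11 to −0.04. *Cd79b* was the B cell gene without overlap, at 1.832, 2.204 and 2.874 TPM in *Txnip*-/- and 1.172, 1.049 and 1.224 TPM in WT, a ratio of 2.01.

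The 4 T cell genes had higher means without Txnip at RT, with no call. *Cd3g*, a chain of the CD3 complex, was at 0.396, 0.269 and 0.397 TPM in RT WT and at 0.764, 0.988 and 0.877 TPM in RT *Txnip*-/-. The groups did not overlap and the ratio of the means was 2.48, from 22 reads in WT and 54 in *Txnip*-/-. *Cd3g* was below the filter, and with the filter off its log2 difference was 0.47 (SE 0.08, limma adjusted p = 0.0784), while voom on reads gave 1.24 (SE 0.32, adjusted p = 0.116). *Cd4* did not overlap either, at 0.348, 0.400 and 0.299 TPM in WT and 0.787, 0.497 and 0.807 TPM in *Txnip*-/-. Its ratio was 1.997, and with the filter off its log2 difference was 0.33 (SE 0.09, limma adjusted p = 0.200).

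*Cd3e*, another CD3 chain, had 0.617, 0.975 and 0.716 TPM in RT WT and 1.238, 0.948 and 1.552 TPM in RT *Txnip*-/-. The groups overlapped by a single pair of libraries, and the log2 difference was 0.34 (SE 0.14, limma adjusted p = 0.302). *Cd3e* passed the filter with a mean of 1.01 TPM, through the *Txnip*-/- group alone. With the filter off the SE was 0.13 and the limma adjusted p 0.362. Exons of *Cd3e* overlap *Gm48719* on the opposite strand, and the strand setting of the counting is not given in the sources used here. *Cd8a* was at 0.115, 0.103 and 0.279 TPM in WT and 0.282, 0.136 and 0.303 TPM in *Txnip*-/-, with overlap and a log2 difference of 0.09 (SE 0.08, limma adjusted p = 0.727, filter off).

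Over the 9 genes at RT with no filter, 1 was called higher, beside 0.091% of all genes called higher, and 0 were called lower. In 3 genes (*Jchain*, *Cd3g* and *Cd4*) every *Txnip*-/- library was above every WT library, and in 0 genes every one was below. Of all genes with a TPM above 0, 11.9% lay without overlap in the higher direction and 5.47% in the lower direction. The median log2 difference of the 9 genes was 0.12, beside 0.02 over the 21970 genes with no filter.

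At TN, *Cd3g* was at 0.479, 1.425 and 1.947 TPM in WT and at 2.930, 4.329 and 2.660 TPM in *Txnip*-/-, a ratio of 2.58. *Cd4* was at 0.474, 0.818 and 0.701 TPM in WT and at 1.665, 2.840 and 2.157 TPM in *Txnip*-/-, a ratio of 3.34. *Cd8a* was at 0.209, 0.536 and 0.561 TPM in WT and at 1.369, 1.372 and 0.999 TPM in *Txnip*-/-, a ratio of 2.86. None of these 3 T cell genes overlapped between the genotypes. *Cd3e* did, at 1.006, 1.738 and 2.729 TPM in WT and 2.315, 3.236 and 2.563 TPM in *Txnip*-/-, a ratio of 1.48. Genes without overlap at TN numbered 5 of the 9 (*Jchain*, *Cd79b*, *Cd3g*, *Cd4* and *Cd8a*), beside 13% of all genes with a TPM above 0, and nothing is read from that count since the genes were chosen on this contrast.

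**Figure D2:**
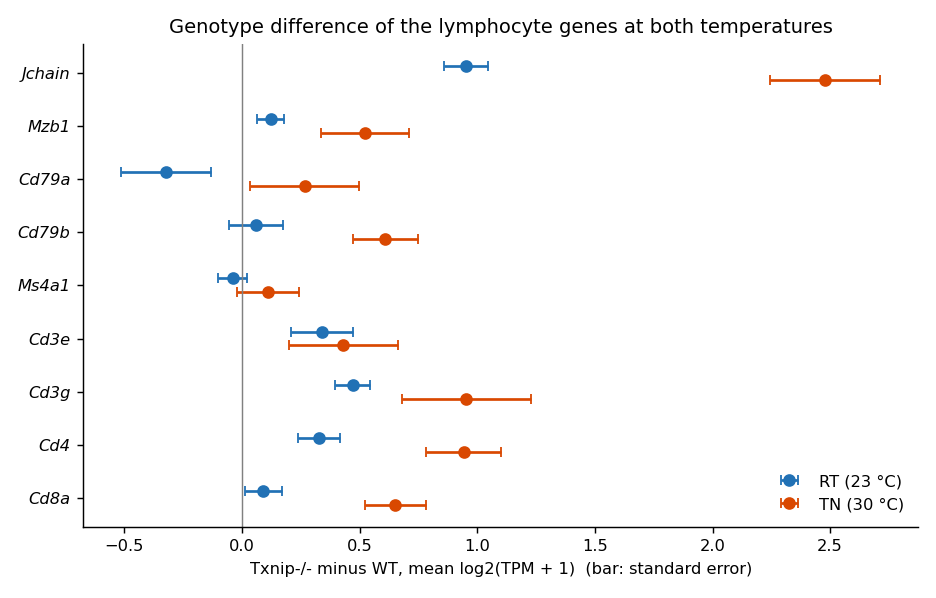
Difference of *Txnip*-/- minus WT in mean log2(TPM + 1) (horizontal axis) for each gene, at RT (blue) and TN (orange), with bars for the standard error from the fit with no filter on low values. *Jchain* stands at 0.95 at RT and at 2.48 at TN, and the TN points of the 9 genes lie to the right of the RT points. This order depends on the scale, which understates the change of low genes. As ratios of means, *Mzb1* was at 2.85 at RT and 2.38 at TN and *Cd3e* at 1.62 and 1.48. The other genes had the larger ratio at TN. The TN points describe the contrast on which the genes were chosen.

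The difference between the genotype effects at RT and TN was not tested, since the TN effect was part of the choice. Within each genotype, all 9 genes had higher means at TN than at RT. The median of the 12486 genes with a mean of at least 1 TPM, a filter that 5 of the 9 passed, was also higher at TN, by 0.18 on the log2 scale in WT and by 0.15 in *Txnip*-/- (0.11 and 0.08 over 22936 genes with no filter). The members are given relative to 0.18 and 0.15. Above that shift, *Jchain* was higher at TN by 0.66 in WT and by 2.22 in *Txnip*-/-, and *Mzb1* by 0.34 and 0.77. The 3 B cell genes were above it by 0.17 (*Ms4a1*) to 0.35 (*Cd79b*) in WT and by 0.35 (*Ms4a1*) to 0.93 (*Cd79b*) in *Txnip*-/-. Among the T cell genes, *Cd3e* and *Cd3g* were above it by 0.45 and 0.51 in WT and by 0.57 and 1.03 in *Txnip*-/-. *Cd4* and *Cd8a* were above it by 0.11 each in WT and by 0.76 and 0.70 in *Txnip*-/-. This scale shrinks the change of low genes, so its order is not that of the ratios. On the scale of voom on reads, *Mzb1* was higher in WT by 2.94 and *Jchain* by 1.82. *Ms4a1*, *Cd79b* and *Cd79a* were higher by 1.54, 1.27 and 0.58. *Cd3g*, *Cd8a*, *Cd3e* and *Cd4* were higher by 1.52, 1.36, 1.09 and 0.87, beside a median of 0.34 over the genes of that fit. In *Txnip*-/- the 9 genes were higher by 1.15 (*Cd3e*) to 2.97 (*Jchain*), beside 0.32.

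In WT, 7 of the 9 genes were higher at TN without overlap, the exceptions being *Cd79a* and *Cd8a*, beside 39.6% of all genes with a TPM above 0. In *Txnip*-/-, 9 of 9 were, beside 37% of all genes. In WT, 4 of 7 other T cell genes and 4 of 4 other B cell genes past the filter were called higher at TN by limma on all 12 libraries, beside 31.4% of 12486 genes tested, and in *Txnip*-/- 6 of 7 and 4 of 4 were, beside 30.9%. Of these calls, 2 T cell genes and 1 B cell gene in WT and 3 and 1 in *Txnip*-/- had a mean of less than 1 TPM in the RT libraries. Over the wider lists in the voom fit, 15 of 23 T cell genes and 12 of 19 B cell genes were higher in WT, beside 38.3% of all genes, and 22 of 23 and 18 of 19 in *Txnip*-/-, beside 36.6%. The B cell gene *Vpreb3* was lower at TN in WT in that fit (−1.81, SE 0.68, adjusted p = 0.0415), where 4.97% of all genes were called lower. These comparisons share libraries with the genotype contrasts, and the members are given side by side with no test. Among all genes, 83.1% of calls between temperatures in WT and 78.9% in *Txnip*-/- were in the higher direction, and 51.1% and 48.5% after each library was centred on its median.

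The order of the groups differed between genes. TN *Txnip*-/- was the highest group for all 9 genes, and its libraries overlapped the next group for *Mzb1*, *Cd79a*, *Ms4a1* and *Cd3e*. For *Jchain* and *Cd4* the next group was RT *Txnip*-/-, which overlapped TN WT. For *Cd79a* and *Ms4a1* the lowest group was RT *Txnip*-/-, while for the other 7 it was RT WT.

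The B cell genes and the T cell genes varied among libraries in different ways. After the mean of each group was taken off, r between libraries was 0.72 to 0.78 for the 3 pairs of B cell genes and 0.41 to 0.77 for the 6 pairs of T cell genes. For the 12 pairs of a B cell gene with a T cell gene, it was −0.76 to 0.14. These values are over 12 libraries on the log2(TPM + 1) scale and are a description of libraries that share depth and scaling within each library. The 3 B cell genes summed to 8.056 TPM in TN *Txnip*-/- replicate 3 and to 4.291 in the lowest library of that group, whereas the 4 T cell genes were highest in another library of it, at 11.777 TPM.

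**Figure D3:**
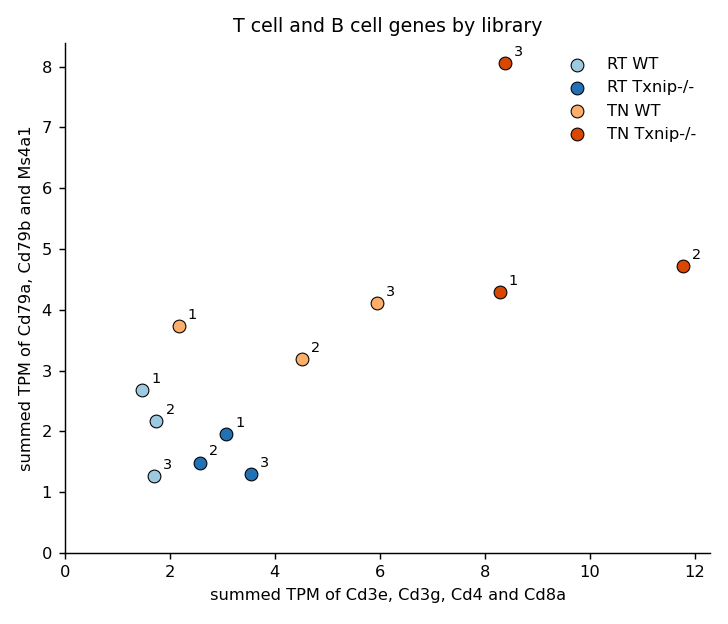
Summed TPM of *Cd3e*, *Cd3g*, *Cd4* and *Cd8a* (horizontal axis) against summed TPM of *Cd79a*, *Cd79b* and *Ms4a1* (vertical axis), 1 point per library with its replicate number, both axes linear from 0. At RT the *Txnip*-/- libraries lie to the right of the WT libraries and within the WT range on the vertical axis, and TN *Txnip*-/- replicate 3 is highest on the vertical axis at 8.056.

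By the same scale over 12 libraries, the patterns most like that of *Jchain* among 12481 genes with a mean of at least 1 TPM were those of *Clu* (r = 0.983), which encodes the secreted chaperone clusterin, *Klrd1* (0.982), which encodes the CD94 receptor of natural killer cells, and *Atp6v0d2* (0.980), a subunit of the vacuolar proton pump. At RT *Clu* averaged 9.56 TPM in WT and 29.3 in *Txnip*-/-, and at TN 28.7 and 213. The closest to *Cd79a* were *Tgfb1i1* (0.950), *Nfya* (0.940) and *Lima1* (0.932), and the closest to *Cd3e* were *AW112010* (0.961), *Sdf2l1* (0.960) and *Sncg* (0.959). None of the 3 genes closest to *Cd79a* or to *Cd3e* was on the lists of lymphocyte genes used here.

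Genes shared by leukocytes also differed between the genotypes. Of 7 pan-leukocyte genes tested at RT, 3 rose without Txnip, beside 0.76% of all genes tested, namely *Cd52* (log2 difference 1.24, SE 0.11, limma adjusted p = 0.0121), *Ptprc*, which encodes CD45 (0.92, SE 0.14, 0.0326), and *Coro1a* (0.70, SE 0.11, 0.0381). Voom called 3 of 8, beside 0.724% of all genes. With 1 library left out, limma called 4 without RT *Txnip*-/- replicate 2, 0 without RT WT replicate 2 and 1 (*Cd52*) without any of the other 4, and voom called 0 to 5. The 8 pan-leukocyte genes of the list summed to 17.4 to 19.9 TPM in RT WT and 32.9 to 45.3 TPM in RT *Txnip*-/-, and to 42.7 to 84.7 TPM in TN WT and 131 to 181 TPM in TN *Txnip*-/-. Of 10 macrophage and myeloid genes tested at RT, 4 rose, beside the same 0.76%, among them *Lyz2*, the lysozyme of macrophages (1.29, SE 0.20, limma adjusted p = 0.0338), and *Mpeg1* (1.26, SE 0.18, 0.0284), and voom called 4 of 12. Limma called 7 of these genes without RT *Txnip*-/- replicate 2, 2 without RT WT replicate 3 and 0 without any of the other 4, and voom called 0 to 8. At TN the 8 pan-leukocyte genes and the 12 myeloid genes were all called higher, beside 6.49% of 12891 genes (5.83% of 17157 by voom on reads). Without TN *Txnip*-/- replicate 1 or 2 limma called 3 or 2 of the 8 pan-leukocyte genes, and 9 to 12 of the myeloid genes were called with any 1 library left out.

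The members were also set against the pan-leukocyte sum of the same library. The 4 T cell genes were 8.72 ± 1.04% of it in WT and 7.77 ± 0.965% in *Txnip*-/- at RT, and 6.04 ± 0.969% and 5.98 ± 0.805% at TN. The genotypes overlapped at both temperatures. The 3 B cell genes were 10.7 ± 3.32% in RT WT and 4.01 ± 0.718% in RT *Txnip*-/-, with no overlap (7.24 to 13.9% against 3.19 to 4.52%). At TN they were 5.95 ± 2.44% in WT and 3.79 ± 2.04% in *Txnip*-/-, and overlapped.

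*Jchain* alone was 1.99 ± 0.369% of the pan-leukocyte sum in RT WT and 4.28 ± 0.944% in RT *Txnip*-/-, and 2.24 ± 0.667% in TN WT and 8.32 ± 2.32% in TN *Txnip*-/-. The genotypes overlapped at neither temperature, with ranges of 1.58 to 2.29% and 3.57 to 5.35% at RT. An exact permutation test of 3 libraries against 3 cannot give a two-sided p below 0.1, and no test was made of these shares. The sum mixes genes of different leukocytes, and the shares are shares of TPM and not of cells.

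**Figure D4:**
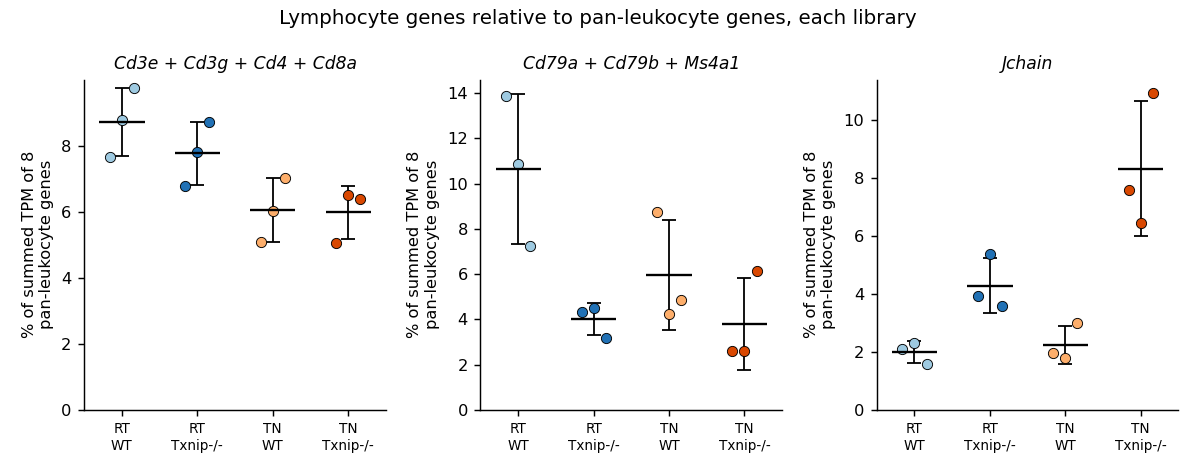
Summed TPM of the T cell genes, the B cell genes and *Jchain* as a percentage of the summed TPM of 8 pan-leukocyte genes in the same library (vertical axis, from 0), for the 3 libraries of each group with mean and ± SD. The T cell panel shows genotypes that overlap at each temperature, the B cell panel shows RT *Txnip*-/- below RT WT, and the *Jchain* panel shows *Txnip*-/- above WT at each temperature, at 8.32% against 2.24% at TN.

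Other markers of the same cells gave counts on a wider base. Of 23 other T cell genes with a value, 22 had a higher mean in RT *Txnip*-/- and 13 lay there without overlap, beside 11.9% of all genes. At TN 23 had a higher mean and 16 did not overlap, beside 13% of all genes. Of the 3 of these that passed the filter at RT, 0 were called by limma (1 at an unadjusted p under 0.05), and voom on reads called 0 of 23 (9 at an unadjusted p under 0.05). At TN voom called 12 of 23 higher, beside 5.83% of all genes, and limma called 5 of 13, beside 6.49%, among them *Lck*, the kinase that starts T cell receptor signalling (0.92, SE 0.18, adjusted p = 0.0217), *Il7r*, a survival receptor (0.92, SE 0.18, 0.0206), and *Thy1* (0.83, SE 0.09, 0.0038). Of the 5 called by limma, 3 (*Il7r*, *Ccr7* and *Cd27*) passed the filter through the *Txnip*-/- group alone. With 1 library left out, limma called 1 to 6 of the T cell genes, with 1 (*Thy1*) without TN *Txnip*-/- replicate 2 and 3 without TN *Txnip*-/- replicate 1 or TN WT replicate 2. Among natural killer and cytotoxic genes, limma called 1 of 2 at RT, beside 0.76% of all genes, the chemokine *Ccl5* (1.06, SE 0.17, limma adjusted p = 0.0404), which voom did not call (1.55, SE 0.33, adjusted p = 0.0658). The voom fit called 1 of 9 at RT, beside 0.724%, the receptor gene *Klrk1* (2.21, SE 0.37, adjusted p = 0.0289). These calls of *Ccl5* and of *Klrk1* were lost with any 1 of the 6 libraries left out. At TN limma called 4 of 6, of which *Klrk1* passed the filter through the *Txnip*-/- group alone, and voom 7 of 11. Both include *Klrd1* (1.24, SE 0.15, limma adjusted p = 0.0054) and *Nkg7* (1.24, SE 0.21, 0.0132). Limma called 1 to 5 at TN when 1 library was left out, with *Klrd1* alone without TN *Txnip*-/- replicate 1 or 2.

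Of 19 other B cell genes, 10 had a higher mean in RT *Txnip*-/- and 3 lay there without overlap, beside 11.9% of all genes. At RT limma called 0 of 3 (1 at an unadjusted p under 0.05), and voom called 0 of 17 (3 at an unadjusted p under 0.05). At TN 18 of 19 had a higher mean and 7 did not overlap, beside 13% of all genes. Voom called 5 of 18 at TN, beside 5.83%, and limma called 3 of 4, beside 6.49%, namely *Cd37* (1.03, SE 0.14, adjusted p = 0.0077), *Cd180* (0.93, SE 0.14, 0.0097) and *Cd72* (0.55, SE 0.09, 0.0102). These 3 encode surface proteins that are also found on myeloid cells. The 3 were among the 5 called by voom, and the others were *Fcrla*, a protein related to Fc receptors that B cells make (2.11, SE 0.34, adjusted p = 0.0035), and the transcription factor gene *Spib* (1.46, SE 0.32, 0.0161), which were under 1 TPM on average. Each of the 6 limma fits with 1 library left out called 3 of the B cell genes.

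Plasma cell genes other than *Jchain* and *Mzb1* gave calls at TN. Of 11 with a value, 3 were higher without overlap in RT *Txnip*-/- and 6 in TN *Txnip*-/-, beside 11.9% and 13% of all genes. At RT limma called 0 of 6 (0 at an unadjusted p under 0.05), and voom called 0 of 10 (2 at an unadjusted p under 0.05). At TN 2 of 10 were called by limma, beside 6.49% of all genes, and 2 of 11 by voom, beside 5.83%, in each case *Tnfrsf13b*, a receptor for the B cell survival factor BAFF (0.57, SE 0.12, limma adjusted p = 0.027), and *Irf4* (0.52, SE 0.08, 0.0106), a regulator of plasma cells that adipocytes express too. *Tnfrsf13b* passed the filter through the *Txnip*-/- group alone, and limma called it with 1 library left out only without TN WT replicate 3, while *Irf4* was called in all 6 such fits. Immunoglobulin and T cell receptor constant genes were sought by symbol and had no row, so no value of them is given here.

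Genes for signals inside the cell after the antigen receptor, which other leukocytes use too, gave 0 of 5 calls by limma at RT (2 at an unadjusted p under 0.05) and 0 of 11 by voom (5 at an unadjusted p under 0.05). At TN voom called 10 of 11 higher, beside 5.83% of all genes, and limma called 6 of 10, beside 6.49%, 1 of which (*Btk*) passed the filter through the *Txnip*-/- group alone. The limma calls were led by *Syk* (0.99, SE 0.15, limma adjusted p = 0.0091), *Lcp2* (0.72, SE 0.17, 0.0356) and *Blnk* (0.70, SE 0.13, 0.02). With 1 library left out limma called 1 to 6, and *Syk* alone without TN *Txnip*-/- replicate 1 or 2 or TN WT replicate 3, and 2 without TN WT replicate 1. Partners of the J chain and of immunoglobulin M, of which the chaperone genes *Hsp90b1* and *Erp44* passed the filter, gave 0 of 2 calls at each temperature by limma and 0 of 3 by voom (0 at an unadjusted p under 0.05 in each). Of factors that recruit or maintain lymphocytes, 0 of 7 were called at RT by limma and 0 of 11 by voom (2 at an unadjusted p under 0.05 in each). At TN 3 of 8 were called by limma, beside 6.49% of all genes, the chemokines *Cxcl16* (1.21, SE 0.21, limma adjusted p = 0.0145) and *Ccl21a* (0.59, SE 0.12, 0.0209) and the cytokine *Ltb* (0.85, SE 0.20, 0.0391). The voom fit called 3 of 12, beside 5.83%, with the chemokine *Ccl19* (2.52, SE 0.56, adjusted p = 0.0172) in place of *Ccl21a* (0.77, SE 0.23, 0.0582). With 1 library left out limma called 0 (without TN *Txnip*-/- replicate 2) to 2 of these factors, and no fit of this kind called all 3.

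**Figure D5:**
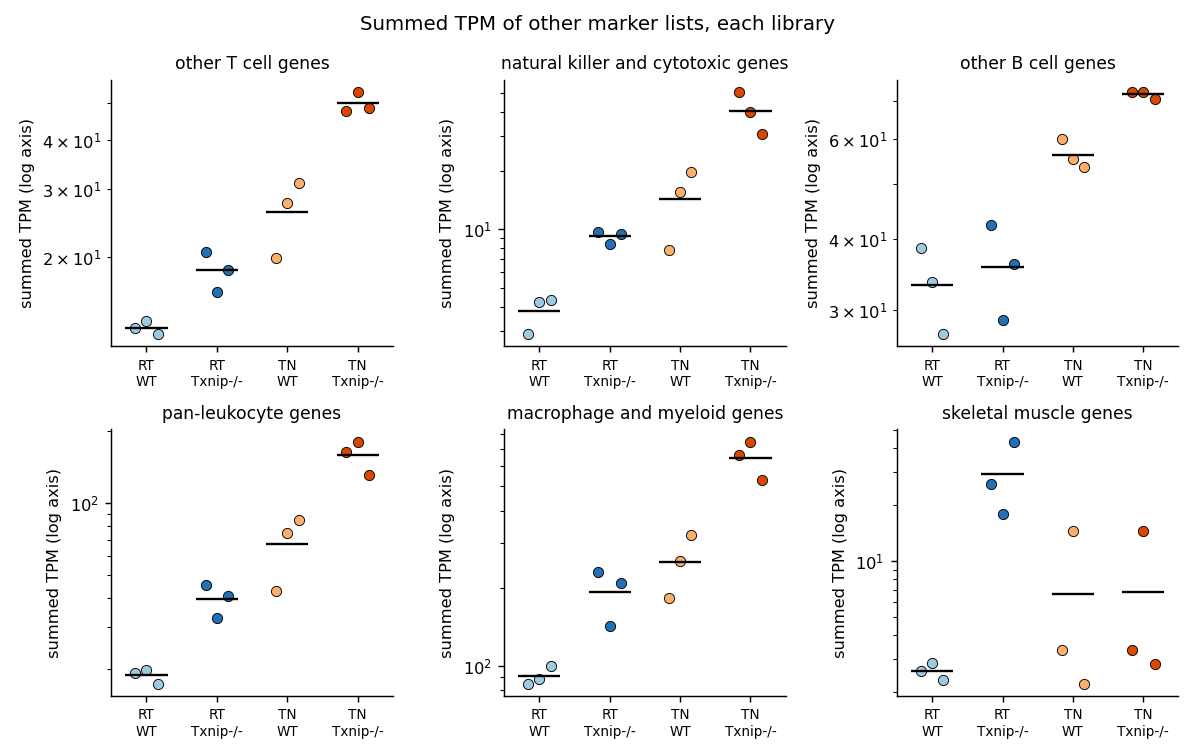
Summed TPM of 6 lists of other marker genes (vertical axis, logarithmic, a different range in each panel) in each library, with a line for the mean of each group. The T cell, natural killer, pan-leukocyte and myeloid sums of RT *Txnip*-/- lie above those of RT WT, the other B cell sums overlap at RT, and the skeletal muscle sums are highest in RT *Txnip*-/-, at 17.9 to 43.5 TPM.

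Brown adipocyte genes fell in 4 of 8 cases in TN *Txnip*-/-, led by *Ucp1*, the uncoupling protein of brown fat (−1.72, SE 0.31, limma adjusted p = 0.0151), beside 2.17% of genes called lower. At RT 1 of 8 fell, *Elovl3* (−1.52, SE 0.27, limma adjusted p = 0.0487), beside 0.726% called lower, and with 1 library left out limma called it only without RT *Txnip*-/- replicate 2. At TN 2 to 4 of the 8 genes were called in such fits, with *Ucp1* in all 6 and 2 without TN *Txnip*-/- replicate 1 or 2.

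Transcripts of skeletal muscle genes were unequal between the RT groups. At RT voom called 4 of 6 higher in *Txnip*-/-, beside 0.724% of all genes, and limma called 5 of 5, beside 0.76%, of which 4 passed the filter through the *Txnip*-/- group alone. The largest limma difference was that of *Ckm*, the creatine kinase of muscle (2.66, SE 0.26, adjusted p = 0.0123), which is 1 of these 4, at 0.0773 TPM in RT WT and 6.16 in RT *Txnip*-/-. When a library was left out, limma called 0 to 5 and voom 0 to 4 of the muscle genes, with 0 in both without RT WT replicate 2, and limma called 1 without RT *Txnip*-/- replicate 1 and 2 without RT WT replicate 1. The 6 genes of the list summed to 17.9 to 43.5 TPM there against 2.32 to 2.84 TPM in RT WT. At TN the muscle sums were 2.21 to 14.4 TPM in WT and 2.82 to 14.4 TPM in *Txnip*-/-, with 0 of 2 genes called by limma and 0 of 6 by voom (0 at an unadjusted p under 0.05 in each). Whether these transcripts came from muscle taken with the BAT or from BAT itself was not tested. The part of muscle genes and of the other leukocytes in the *Jchain* difference at RT was not tested. Genes of lymph node stroma summed to 0.114 to 0.726 TPM over the 12 libraries, and genes of immature thymocytes and B precursors to 0.218 to 1.60 TPM. Of the 6 latter genes, 0 were higher without overlap in *Txnip*-/- at RT, beside 11.9% of all genes, and 1 was at TN (*Dntt*, a polymerase of developing lymphocytes), beside 13%.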

How the data were processed

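Libraries of polyadenylated RNA from BAT were read from 1 end for 75 bases. The authors used STAR 2.7.5a for alignment to mm10 and HOMER 4.11.1 for exon counts, 1 transcript being kept for each gene. The deposited TPM of all 12 libraries are the values used here, and those of the listed genes sum to 55.4 to 57.6% of the total to which TPM are scaled. The deposited log2 values of each temperature's 6 libraries, by a transform the sources used here do not name, served as an alternative, and for *Cd79b* and *Cd8a* they describe another transcript than the TPM. The authors' own fold changes and p-values, from their DESeq2 comparison, were not used.

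TPM multiplied by the deposited transcript length were whole multiples of 1 number in each library (99.5 to 99.9% of values under 100 reads were within 0.1 of a whole read), and these reads gave the Poisson intervals and limma voom fits. Intervals cover counting error only.

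TPM were compared as log2(TPM + 1) with limma 3.58.1 in R 4.3.3 (trend on mean expression, Benjamini-Hochberg adjustment over all genes with a mean of at least 1 TPM in the libraries compared), and a call needed a fold over 1.25 or under 0.8 together with an adjusted p of less than 0.05. Genotypes were compared on the 6 libraries of a temperature and temperatures on all 12 with 4 group means. When 200 genes were moved by 1 (log2) in simulated libraries, 92.5% were recovered at RT and 91.5% at TN. These genes were drawn from levels well above the filter of 1 TPM, which no member reached at RT. The rate at RT therefore does not describe the members.

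The members and the lists were chosen with earlier results of these data known. The genes named are the members, *Txnip*, the called genes of each list (at most 3 with the largest and 3 with the smallest change) and the 3 genes most like *Jchain*, *Cd79a* and *Cd3e*. *Hsp90b1*, *Erp44*, *Klrk1*, *Ccr7*, *Cd27*, *Btk*, *Vpreb3*, *Fcrla*, *Spib*, *Ccl19* and *Dntt* were named after their values were seen. Alternatives were a pseudocount of 0.1, no filter, upper-quartile normalization, the replicate block, all 12 libraries in 1 fit, the authors' log2 values and each library left out. Median centring and voom on reads (for *Jchain* and the lists at RT also with each library left out) were added after the data were seen. Figures were drawn with matplotlib 3.10.9.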

Additional observations from a re-analysis of the deposited data

How the results depend on the processing

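Of 388 values of the 9 genes under other settings, 385 kept their direction. The exceptions were *Cd79b* at RT without RT WT replicate 3 (−0.037 on the log2 scale, range −0.037 to 0.185 over libraries left out), *Ms4a1* at RT without RT *Txnip*-/- replicate 3 (0.0025, range −0.091 to 0.0025) and *Ms4a1* at TN without TN *Txnip*-/- replicate 3 (−0.039, range −0.039 to 0.206). The 178 genes called between genotypes at RT became 44 with no filter, 272 with all 12 libraries in the fit and 2 to 159 when each library was left out, fewest without RT WT replicate 2 (2) and RT *Txnip*-/- replicate 3 (25). They were 31 without RT WT replicate 1, and 33 and 87 without RT *Txnip*-/- replicates 1 and 2. The 1116 at TN became 621 with no filter and 456 to 1005 when each library was left out, with 456 and 464 without TN *Txnip*-/- replicates 1 and 2, and 703 and 684 without TN WT replicates 1 and 3. The 4717 between temperatures in WT became 7223 with voom on reads. The cause of these moves was not tested. With the replicate number as a block, 100 genes were called at RT and *Jchain* remained called (limma adjusted p = 0.0341). That fit kept the filter of 1 TPM, which *Jchain* passed through the *Txnip*-/- group alone. Same-numbered libraries did not all deviate together (r of −0.01 to 0.30 at RT and −0.03 to 0.04 at TN, 4 and 2 of 6 libraries correlating best with their own number), so the numbers were not read as pairs. Depth limits *Mzb1* most, with under 10 reads in 9 of 12 libraries.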

Other observations

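Natural killer and cytotoxic genes were called higher at TN in 4 of 5 cases in WT and in 5 of 5 in *Txnip*-/- by limma on all 12 libraries, beside 31.4% and 30.9% of all genes tested, and 3 of the calls in each were of genes under 1 TPM on average at RT. By voom 8 of 11 and 11 of 11 were called, beside 38.3% and 36.6%. The median log2 differences between temperatures were 0.55 in WT and 1.09 in *Txnip*-/- for other T cell genes and 0.82 and 1.13 for other B cell genes, beside 0.18 and 0.15 for all genes past the filter. These cover the 7 T cell and 4 B cell genes past the filter, and on the scale of voom on reads the medians were 1.20 and 1.69 over 23 T cell genes and 1.13 and 1.94 over 19 B cell genes, so that the order of the lists in WT turned. *Ebf1* is 1 of the 4 B cell genes called and is expressed by adipocytes too.

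Blood genes, a list of red cell, neutrophil and platelet markers, gave 0 calls between genotypes at each temperature. By limma 2 of 5 at RT and 1 of 8 at TN were at an unadjusted p under 0.05, and voom called 0 of 8 at each. Their sums were 598 to 884 TPM at RT and 486 to 1480 TPM at TN, with the highest value in a TN *Txnip*-/- library.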
